A study of Homo sapiens with 12 samples.

Results

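The Fadu invasion subline was compared with its parent cells on 4 of the 12 arrays of the study. The 2 arrays titled as Fadu invasion subline and the 2 titled as Fadu parent were taken by their titles. Fadu is an established squamous carcinoma line of the hypopharynx. The study measured total RNA of 3 head and neck cancer lines, labelled Detroit, Fadu and OECM1, each as parent cells and as an invasion subline, on Affymetrix arrays with 2 arrays in each of 6 groups. Per the labels, the subline came from a Matrigel invasion procedure that was used to obtain highly invasive cells. The labels give neither the number of rounds nor whether the cells were pooled or grown from 1 clone. The parent carries the same line name and no further treatment is given for either group. The labels number the duplicates but do not say that they came from separate cultures, so the p-values reflect only how far these samples spread, and that spread may be technical. The comparison addresses which transcripts differ after selection for invasion within this line.

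All values are log2 RMA values, in which a difference of 1 is a 2-fold change, and RMA compresses differences between weak signals. Of 11963 genes with a probe set of a single symbol, 8992 were tested, because at least 2 of the 12 arrays lay above a log2 value of 4.52, called the dim limit below. The median over all probe sets lay between 4.92 and 5.06 on the 12 arrays. The subline and parent means correlated at r = 0.978 over the genes tested, which are not independent replicates, and differed by a root mean square of 0.348. Duplicates differed by 0.424 in the subline and 0.485 in the parent, so single arrays of a group lay farther apart than the group means. A mean of 2 arrays varies less than 1 array, so these are unlike measures. Subline replicate 2 and parent replicate 1 differed by only 0.384 (r = 0.974), less than either pair of duplicates. The other pairs across the groups differed by 0.473 to 0.537. The nearest pair thus crossed the groups. The 3 prime minus 5 prime difference of the ACTB control, a measure that can move with RNA quality, was -0.05 and 0.40 in the subline and 0.55 and -0.23 in the parent, and thus crossed the groups. A control for 18S RNA read 12.6 on subline replicate 1 and 4.87 to 5.73 on the other 3 arrays. The part of the 18S reading in the results below was not tested, and a fit with the ACTB difference as a covariate is given with the other settings.

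The arrays held the epithelial and squamous transcripts that the line's name calls for. SFN, which encodes stratifin of stratified epithelia, lay between 11.2 and 11.8 on the 4 arrays. KRT5, a basal keratin, lay between 9.81 and 10.4, KRT14 between 8.20 and 9.48, and EPCAM between 8.85 and 9.56. DSG3, a desmosomal cadherin, lay between 6.35 and 7.08, while PKP1, a desmosomal plaque gene, lay near the dim limit at 4.12 to 5.05. KRT17 and TP63 were not analysed here. Of 10 fibroblast markers 4 lay under the dim limit on all 4 arrays, COL3A1 and LUM among them. So did 6 of 8 endothelial markers, PECAM1, CDH5, VWF and KDR included, and 4 of 10 leukocyte markers, PTPRC and LYZ included. The remaining markers lay above it on at least 1 array. The highest parent means were 5.99 for COL1A1 (fibroblast), 5.07 for ROBO4 (endothelial) and 5.64 for CD3D (leukocyte). The highest subline means of the 3 lists were 6.13, 5.06 and 5.61. The summed log2 level of the fibroblast list was 43.1 and 41.4 in the subline and 41.5 and 44.0 in the parent. For endothelial markers the sums were 32.2 and 32.0 against 32.0 and 32.8, and for leukocyte markers 43.0 and 42.3 against 42.5 and 43.9, so the groups overlapped or lay side by side in each.

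Several pathways that recur below have known roles in squamous cancers. NRF2 is a transcription factor that is freed from KEAP1 under oxidative stress and drives genes of glutathione and xenobiotic metabolism through antioxidant response elements. SREBP factors drive cholesterol and fatty acid synthesis when sterols are low. Interferon acts through STAT and IRF factors on interferon-stimulated response elements. The DREAM and MuvB complexes time mitotic genes through the cell cycle homology region. The CCAAT box, another promoter motif, was searched beside it. Matrigel is an extract of basement membrane, the sheet of type IV collagen and laminin that a carcinoma crosses when it invades.

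Promoter sequences of 4 genes are shown, each from a group that is described below: GPX2 for the NRF2 genes, BST2 for the interferon genes, COL4A1 for type IV collagen, and DLGAP5 for the mitotic genes. Each is a window of 300 bases from RefSeq on GRCh38.p14, from 250 bases before to 50 bases after the gene's start, written 5′ to 3′ on the gene's strand. Of the 129 genes followed across settings, 102 had such a window. Capitals mark matches to a motif, which was searched on both strands. They mark TGACNNNGC, the core of the antioxidant response element, in GPX2 (chr14:64942696-64942995, minus strand). In BST2 they mark the interferon-stimulated response element, searched as GAAA and GAAA with 2 bases of any kind between them (chr19:17405581-17405880, minus strand), CCAAT in COL4A1 (chr13:110307108-110307407, minus strand) and TTTGAA, the cell cycle homology region, in DLGAP5 (chr14:55191536-55191835, minus strand).
GPX2: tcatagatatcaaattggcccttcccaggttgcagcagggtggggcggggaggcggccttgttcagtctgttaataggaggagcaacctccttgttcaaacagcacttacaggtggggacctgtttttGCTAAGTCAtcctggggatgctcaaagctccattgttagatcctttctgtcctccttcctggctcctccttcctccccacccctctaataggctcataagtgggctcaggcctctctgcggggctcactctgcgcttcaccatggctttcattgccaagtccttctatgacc
BST2: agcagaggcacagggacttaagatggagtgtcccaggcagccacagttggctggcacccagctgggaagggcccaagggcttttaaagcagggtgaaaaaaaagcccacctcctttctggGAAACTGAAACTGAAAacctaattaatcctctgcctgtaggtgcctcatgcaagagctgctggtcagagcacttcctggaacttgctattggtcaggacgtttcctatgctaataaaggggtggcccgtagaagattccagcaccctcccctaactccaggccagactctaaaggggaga
COL4A1: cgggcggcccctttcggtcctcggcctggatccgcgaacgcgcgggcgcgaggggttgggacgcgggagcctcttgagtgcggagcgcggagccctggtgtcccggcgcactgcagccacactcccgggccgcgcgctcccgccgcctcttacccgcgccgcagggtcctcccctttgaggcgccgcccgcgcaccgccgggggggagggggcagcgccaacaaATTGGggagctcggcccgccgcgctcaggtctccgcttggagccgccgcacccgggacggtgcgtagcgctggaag
DLGAP5: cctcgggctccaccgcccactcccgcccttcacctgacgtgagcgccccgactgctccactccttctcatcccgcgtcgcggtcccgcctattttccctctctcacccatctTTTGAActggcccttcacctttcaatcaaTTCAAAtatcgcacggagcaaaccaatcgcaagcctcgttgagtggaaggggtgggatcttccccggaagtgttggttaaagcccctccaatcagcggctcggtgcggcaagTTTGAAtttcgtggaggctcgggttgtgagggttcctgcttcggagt

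The GPX2 window held 1 match, GCTAAGTCA, read on the opposite strand at position -122, with the start site at 0. The core was present in 13.3% of all 35116 windows and in 11 of 31 windows of the NRF2 list. The BST2 window held 2 overlapping matches, at positions -130 and -124, for an element found in 3.57% of all windows and in 21 of 32 windows of the interferon list. The DLGAP5 window held 3 matches, at positions -138, -109 and 3. TTTGAA was present in 15.2% of all windows and in 22 of 35 windows of the mitotic list, and CCAAT in 34.6% of all windows and in 30 of 35. The sterol regulatory element TCACNCCAC was present in 1.13% of all windows and in 1 of 29 windows of the cholesterol and fatty acid list. COL4A1 and COL4A2 stand head to head, and their windows overlapped by 226 bases with start sites 73 bases apart, so that the capitals in COL4A1 lie in both windows. A match describes the letters of a window and not a bound site.

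Few genes passed the adjusted threshold of 0.05. SCNN1A fell when the spread was taken from the 4 Fadu arrays, 1 of 8992 genes or 0.0111%, and 0 genes rose. GPX2 and BST2 fell when the spread was pooled over all 6 groups, 2 of 8992 genes or 0.0222%, and again 0 genes rose. Both fits were made with limma, and the median standard error of a log2 fold change was 0.250 with the Fadu spread and 0.351 with the six-group spread. At an unadjusted p under 0.05 the Fadu spread gave 467 genes, 5.19%, of which 257 were higher (2.86%) and 210 lower (2.34%), where 5% of the genes tested would be 449.6. The six-group spread gave 182 genes, or 2.02%. Both counts moved when single Fadu arrays were left out, as given below, in fits that leave 1 array in a group. The SCNN1A difference lay between -3.35 and -3.06 in these fits.

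SCNN1A encodes the alpha subunit of the epithelial sodium channel, the pore that carries sodium across tight epithelia. Its values were 5.04 and 4.75 in the subline and 8.17 and 8.02 in the parent. All 4 arrays stood above the dim limit, and both subline arrays lay far under both parent arrays. The gene fell by 3.20 on the log2 scale (SE 0.248, n = 2 arrays per group, 9.22-fold, adjusted p = 0.0236, limma with the Fadu spread). With the six-group spread the SE was 0.835 and the adjusted p = 1.00. That spread took in duplicates of the other lines, which differed by 0.504 (OECM1 subline) to 0.891 (Detroit invasion subline) as a root mean square. With the spread pooled over the Fadu and OECM1 groups only, the adjusted p was 0.107 (limma). It was 0.0977 with array weights in the six-group fit. The OECM1 difference was -1.04. This result belonged to 1 of 3 probe sets, the one with the highest mean over the 12 arrays, while the other 2 gave means of 6.41 against 6.73 and 6.53 against 6.64, log2 differences of -0.31 and -0.10, with overlapping arrays. With the probe set of highest Fadu mean the adjusted p was 0.991, which ended the call. It held without each array in turn, at adjusted p of 0.0180 to 0.0448. In a bulk RNA sample, fewer cells that express a gene and less RNA per cell cannot be told apart.

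GPX2 encodes a glutathione peroxidase of epithelia that reduces hydroperoxides and is a known NRF2 target. It read 5.59 and 5.29 in the subline and 8.04 and 8.86 in the parent, so the groups were far apart. It fell by 3.01 (SE 0.317, 8.07-fold, adjusted p = 0.00992, limma with the six-group spread), with an adjusted p of 0.0813 and SE 0.326 with the Fadu spread. In the six-group fit the adjusted p was 0.0960 without subline replicate 1, 0.139 without subline replicate 2, 0.0159 without parent replicate 1 and 0.0844 without parent replicate 2. The mean level was 5.73 in the OECM1 subline, 5.08 in the OECM1 parent, 6.01 in the group titled Detroit invasion subline and 8.06 in the Detroit parent. BST2 encodes tetherin, a membrane protein that retains budding virus and is induced by interferon. Its values were 4.76 and 5.35 in the subline and 8.31 and 7.55 in the parent, again without overlap. BST2 fell by 2.88 (SE 0.319, 7.36-fold, adjusted p = 0.00992, limma with the six-group spread), with an adjusted p of 0.0929 with the Fadu spread. In the six-group fit the adjusted p was 0.178 without subline replicate 1 and 0.0669 without parent replicate 1, and 0.0448 and 0.0307 without the other two arrays. GPX2 and BST2 each had 1 probe set of a single symbol.

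**Figure D1:**
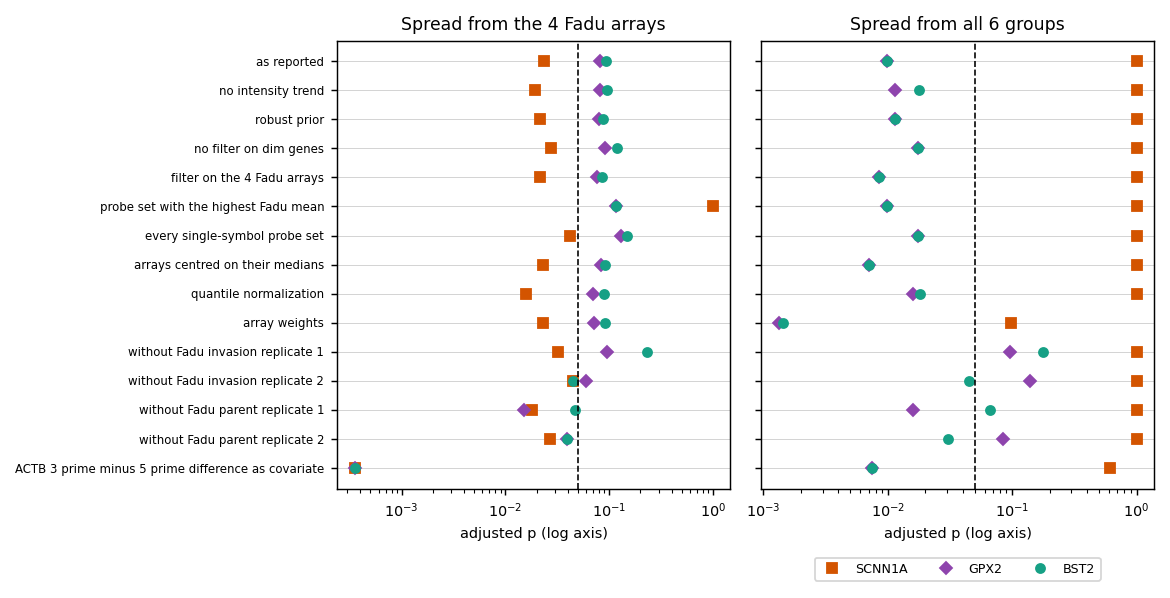
Adjusted p (log axis) of SCNN1A (squares), GPX2 (diamonds) and BST2 (circles) under the settings listed at the left, the last of them added after seeing the data, with the spread from the 4 Fadu arrays on the left and from all 6 groups on the right; the dashed line is 0.05. SCNN1A lies at 0.0236 on the left as reported and at 1.00 on the right. GPX2 and BST2 lie at 0.0813 and 0.0929 on the left and both at 0.00992 on the right. Settings with a replicate block, and the spread pooled over the Fadu and OECM1 groups, are not shown. With the planned replicate block, GPX2 and BST2 both had an adjusted p of 0.206 in the six-group limma fit.

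Genes beyond these 3 are described by their values, since none passed the threshold in either fit. To be named among them a gene needed both subline arrays beyond both parent arrays, a mean above the dim limit in the higher group and an unadjusted p under 0.01 with the Fadu spread. Of the genes tested, 1.23% had such a p in either direction. There were 58 lower and 52 higher genes that met all of this, and the 15 of each with the largest fold change were named, the 3 called genes among them. Over all 11963 genes, 2407 (20.1%) lay lower without overlap and 1552 (13%) lay higher, and the median difference was -0.04. Differences of more than 2-fold were measured for 85 lower genes (0.711%) and 60 higher genes (0.502%).

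**Figure D2:**
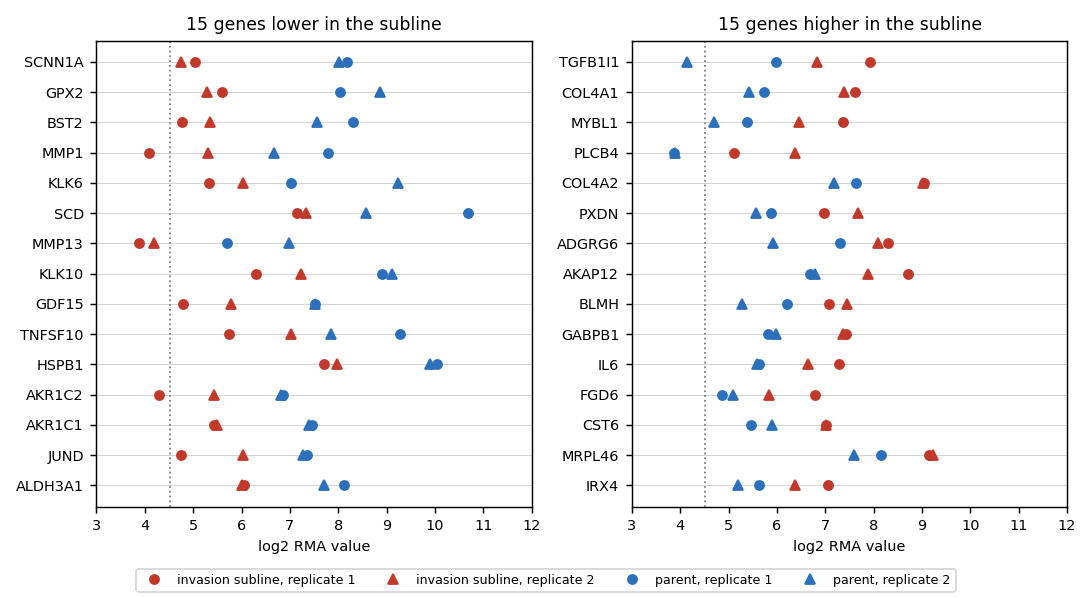
Log2 RMA values of the 15 lower genes (left) and the 15 higher genes (right) on each Fadu array, subline in red and parent in blue, replicate 1 as circles and replicate 2 as triangles; the dotted line is the dim limit of 4.52. The subline and parent symbols do not overlap in any of the 30 genes, as the naming rule required, and duplicates lie widest apart in genes such as KLK6 (7.02 and 9.23 in the parent) and SCD (10.69 and 8.58).

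Metalloproteinases that cut fibrillar collagen were among the lower genes. MMP1, interstitial collagenase, read 4.08 and 5.30 in the subline and 7.78 and 6.66 in the parent, a log2 difference of -2.53 (SE 0.488, adjusted p = 0.522, limma with the Fadu spread). MMP13, collagenase 3, read 3.88 and 4.18 against 5.69 and 6.99, a difference of -2.30 (SE 0.408, adjusted p = 0.425). Both subline values of MMP13 and 1 of MMP1 lay under the dim limit. The gelatinase MMP9 ran the other way, at 6.87 and 6.08 in the subline and 5.09 and 5.32 in the parent, a difference of 1.27 (SE 0.312). TIMP1, an inhibitor of metalloproteinases, read 9.64 and 9.67 against 8.95 and 8.02, a difference of 1.17 (SE 0.320). In the list of 33 matrix proteases and inhibitors, 10 genes (30.3%) lay lower and 6 (18.2%) higher without overlap, with a median of -0.04.

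Kallikreins and calprotectin, proteins of the differentiating squamous layer, also lay lower. KLK10 read 6.30 and 7.23 in the subline and 8.90 and 9.12 in the parent, a difference of -2.25 (SE 0.337, adjusted p = 0.260, limma with the Fadu spread). KLK6 read 5.33 and 6.04 against 7.02 and 9.23, a difference of -2.44 (SE 0.649), and KLK5 5.18 and 5.03 against 6.23 and 7.71, a difference of -1.86 (SE 0.450). The parent duplicates of KLK6 and KLK5 lay far apart, yet both stood above the subline. S100A9 and S100A8, the 2 calprotectin chains, differed by -1.09 and -0.87, and both subline values of S100A8 lay under the dim limit, at 3.60 and 3.74. Of 30 genes of the cornified envelope and squamous differentiation, 10 (33.3%) lay lower and 1 (3.33%) higher without overlap, with a median of -0.32. Of 14 keratins 4 lay lower and 2 higher, with a median of -0.06. KRT5 differed by -0.39 and KRT14 by -0.02 with overlapping arrays. KRT4, of non-cornified mucosa, differed by -1.23, but by -2.03 to -0.43 when single arrays were left out, and its second probe set lay higher, at 0.33. The simple-epithelium keratin KRT7 differed by 0.57, and by -0.23 with overlapping arrays in another probe set.

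Genes of glutathione and xenobiotic metabolism formed the list with the largest lower share. Of 31 NRF2 targets and related genes on the array, 19 (61.3%) lay lower without overlap and 2 (6.45%) higher, with a median difference of -0.35 against -0.04 over all genes. The list's median against the parent mean was -0.38 and -0.42 on the subline arrays and -0.11 and 0.11 on the parent arrays, so both subline arrays lay under both parent arrays. GPX2 was called in the six-group fit. AKR1C1 and AKR1C2 encode aldo-keto reductases that are so alike that probe sets may share signal. AKR1C1 read 5.43 and 5.49 in the subline and 7.45 and 7.39 in the parent, a difference of -1.96 (SE 0.233, adjusted p = 0.0929, limma with the Fadu spread). Its duplicates agreed within 0.1, and the separation was among the cleanest of the set. The other AKR1C1 probe sets gave -0.93 without overlap and -0.10 with overlap. AKR1C2 differed by -1.98 (SE 0.373).

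ALDH3A1, an aldehyde dehydrogenase of stratified epithelia, read 6.05 and 6.01 in the subline and 8.12 and 7.70 in the parent, a difference of -1.88 (SE 0.258, adjusted p = 0.170, limma with the Fadu spread). GCLC, the catalytic subunit of the enzyme that starts glutathione synthesis, read 6.73 and 7.43 against 8.71 and 8.24, a difference of -1.39 (SE 0.317). The cystine importer SLC7A11, which supplies that synthesis, read 5.59 and 6.47 against 6.96 and 7.55, a difference of -1.23 (SE 0.362). EPHX1, a microsomal epoxide hydrolase, differed by -1.37, TXNRD1, a thioredoxin reductase, by -0.79, and NQO1, a quinone reductase at 9.59 to 10.5 on all 4 arrays, by -0.68. The 2 members that lay higher were GCLM, the modifier subunit of the GCLC enzyme, and HMOX1, heme oxygenase 1. GCLM read 8.53 and 8.68 against 7.80 and 7.82, a difference of 0.80 (SE 0.227), and HMOX1 5.63 and 5.96 against 4.94 and 5.21, a difference of 0.72 (SE 0.247). The 2 subunits of 1 enzyme thus lay on opposite sides. Of 19 other glutathione, peroxiredoxin and superoxide enzymes, 6 lay lower and 5 higher, with a median of -0.26.

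Cholesterol and fatty acid synthesis was the other list with a large lower share: 13 of 23 genes (56.5%) lay lower without overlap and 0 higher, with a median of -0.43. By array the median against the parent mean was -0.70 and -0.31 in the subline and 0.14 and -0.14 in the parent. SCD, the stearoyl-CoA desaturase that makes monounsaturated fatty acids, read 7.15 and 7.34 in the subline and 10.69 and 8.58 in the parent, a difference of -2.39 (SE 0.595, adjusted p = 0.715, limma with the Fadu spread). All 4 of its probe sets lay lower, at -2.39, -1.96, -1.91 and -1.76. INSIG1, a sterol sensor that is itself an SREBP target, read 5.92 and 6.73 against 9.40 and 7.35, a difference of -2.05 (SE 0.621). In both genes parent replicate 1 stood about 2 log2 units above parent replicate 2. HMGCS1, the hydroxymethylglutaryl-CoA synthase, had closer duplicates, at 4.53 and 5.22 against 6.13 and 6.65, a difference of -1.52 (SE 0.317).

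FASN, fatty acid synthase, differed by -1.17, though its second probe set gave 0.04 with overlapping arrays. LSS, lanosterol synthase, read 5.82 and 5.43 in the subline and 6.59 and 6.98 in the parent, a difference of -1.16 (SE 0.272). The transcription factors of the pathway lay lower as well: SREBF1 read 6.79 and 6.85 against 8.32 and 7.47, a difference of -1.08 (SE 0.321), and SREBF2 differed by -0.65 (SE 0.249). None of the 23 passed the adjusted threshold, and 10 had an unadjusted p under 0.05 with the Fadu spread, all of them lower, where 2.34% of the genes tested did so. Among 28 hypoxia and glycolysis genes 9 lay lower and 4 higher, with a median of -0.15. The aldolase ALDOC read 5.55 and 5.63 against 6.98 and 7.19, 2.82-fold lower (SE 0.239 on the log2 scale, adjusted p = 0.260, limma with the Fadu spread), and HK1, a hexokinase, differed by -0.76.

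**Figure D3:**
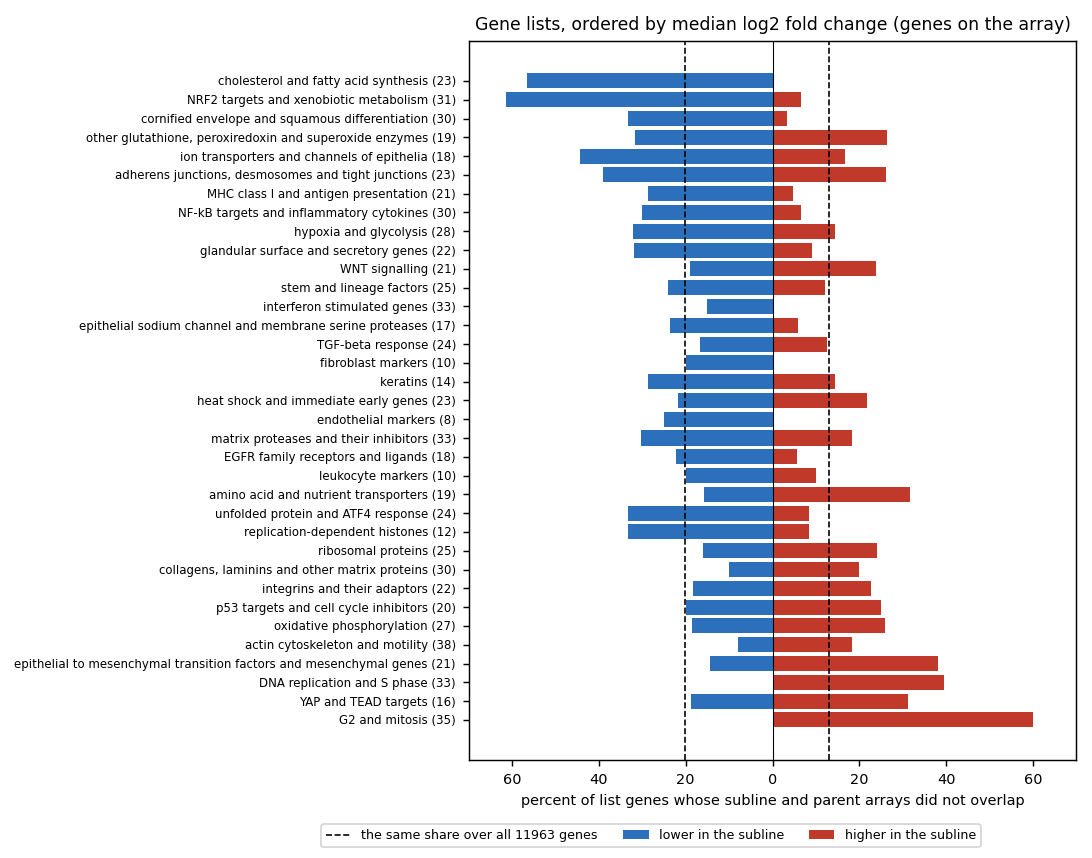
Share of each gene list (number of genes on the array in brackets) whose subline arrays both lay under (blue, left) or above (red, right) both parent arrays, ordered by the list's median log2 fold change; dashed lines give the shares over all 11963 genes, 20.1% lower and 13% higher. Cholesterol and fatty acid synthesis (56.5%) and NRF2 targets (61.3%) reach farthest to the left, and G2 and mitosis (60%) farthest to the right.

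Proliferation genes lay higher in the subline. Of 35 genes of G2 and mitosis, 21 (60%) lay higher without overlap and 0 lower, with a median of 0.46, and 33 had a difference above 0. Against the parent mean the list's median was 0.55 and 0.40 on the subline arrays and -0.06 and 0.06 on the parent arrays. TTK, a kinase of the spindle checkpoint, read 7.86 and 7.61 in the subline and 6.58 and 6.56 in the parent, a difference of 1.17 (SE 0.242, adjusted p = 0.536, limma with the Fadu spread). DLGAP5, a spindle protein whose promoter is printed above, read 9.07 and 9.06 against 8.13 and 7.84, a difference of 1.08 (SE 0.232). The duplicates of both genes lay within 0.3 of each other, well under the difference between groups.

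NEK2, a centrosome kinase, differed by 1.18 (SE 0.260), KIF23, a kinesin of the midbody, by 1.03 (SE 0.254) and AURKA, a spindle pole kinase, by 1.00 (SE 0.266). CCNB1, cyclin B1, read 10.18 and 10.05 in the subline and 9.35 and 9.48 in the parent, a difference of 0.70 (SE 0.199). None passed the adjusted threshold, and 11 of the 35 had an unadjusted p under 0.05 and lay higher, where 2.86% of the genes tested did so. Of 33 genes of DNA replication and S phase, 13 (39.4%) lay higher and 0 lower, with a median of 0.21, and 3 had an unadjusted p under 0.05. RRM1, the large subunit of ribonucleotide reductase, read 8.76 and 9.30 against 8.41 and 7.87, a difference of 0.88 (SE 0.295). GINS1, of the replicative helicase, differed by 0.70 (SE 0.275), RFC4, a clamp loader subunit, by 0.55 and MCM10, which helps to start replication, by 0.54, while MCM2 of the helicase ring overlapped at 0.26.

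The G1 cyclins diverged. CCND2, cyclin D2, read 8.41 and 9.90 in the subline and 7.79 and 5.48 in the parent, a difference of 2.52 (SE 0.752, adjusted p = 0.804, limma with the Fadu spread). Its duplicates spanned more than 1 log2 unit in each group, and its other 2 probe sets gave 2.05 and 1.75, both without overlap. The probe set at 1.75 had means of 5.62 and 3.87, with the parent mean under the dim limit. When all 13311 probe sets of a single symbol were tested, that one was called with the six-group spread. It was the 1 higher call of 3. CCND1, cyclin D1, read 8.36 and 8.04 against 8.62 and 9.34, a difference of -0.78 (SE 0.299). In the list of 20 p53 targets and cell cycle inhibitors 5 lay higher and 4 lower. GDF15, a stress-induced cytokine, read 4.79 and 5.78 against 7.52 and 7.52, a difference of -2.23 (SE 0.347, adjusted p = 0.260), whereas its second probe set gave 0.14 with overlapping arrays. PLK2, a p53-responsive kinase, differed by 0.73.

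Basement membrane collagen lay higher. COL4A1 and COL4A2 encode the 2 chains that form the common type IV collagen trimer. COL4A1 read 7.61 and 7.38 in the subline and 5.72 and 5.41 in the parent, a difference of 1.93 (SE 0.254, 3.81-fold, adjusted p = 0.150, limma with the Fadu spread). COL4A2 read 9.03 and 9.01 against 7.63 and 7.17, a difference of 1.62 (SE 0.253, 3.08-fold, adjusted p = 0.260). The groups were well apart in both genes, and their second probe sets gave 1.69 and 1.32 without overlap. PXDN, peroxidasin, which crosslinks type IV collagen, read 6.97 and 7.67 against 5.87 and 5.56, a difference of 1.60 (SE 0.306, adjusted p = 0.522). PXDN differed by 2.28 in OECM1, where COL4A1 and COL4A2 differed by -0.42 and -0.04. Over 30 collagens, laminins and other matrix proteins, 6 (20%) lay higher and 3 (10%) lower, with a median of 0.06, so the list as a whole lay near the background.

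Other genes of the cell surface, matrix response and actin were higher by their values. TGFB1I1, the focal adhesion adaptor Hic-5, read 7.93 and 6.84 in the subline and 5.98 and 4.15 in the parent, a difference of 2.32 (SE 0.604, adjusted p = 0.750, limma with the Fadu spread). CCN2, a matricellular YAP target, read 7.69 and 6.96 against 6.74 and 4.58, a difference of 1.66 (SE 0.642), and MYL9, a myosin light chain, 7.77 and 6.87 against 6.75 and 5.11, a difference of 1.39. In these 3 genes parent replicate 2 lay more than 1 log2 unit under parent replicate 1. AKAP12, a scaffold of protein kinase A, had closer parent values, at 8.71 and 7.89 against 6.68 and 6.78, a difference of 1.57 (SE 0.316). Of 16 YAP and TEAD targets, 5 (31.2%) lay higher and 3 (18.8%) lower, with a median of 0.25, and of 38 actin and motility genes 7 (18.4%) lay higher and 3 (7.89%) lower, with a median of 0.15. TPM2, a tropomyosin, differed by 0.82 and ACTN4, an actin crosslinker, by 0.58.

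Mesenchymal genes were mixed. CD44, the hyaluronan receptor, read 10.42 and 9.50 in the subline and 8.47 and 8.85 in the parent, a difference of 1.30 (SE 0.331, adjusted p = 0.731, limma with the Fadu spread), and 6 of its 8 probe sets lay higher without overlap. AXL, a receptor tyrosine kinase, read 9.96 and 9.20 against 8.51 and 8.20, a difference of 1.22 (SE 0.301). SNAI2, the repressor Slug, read 8.73 and 8.71 against 8.06 and 7.75, a difference of 0.82 (SE 0.236), and TNC, the matrix glycoprotein tenascin C, differed by 0.92, while its other probe set overlapped at -0.03. Those genes kept the groups apart, but the defining mesenchymal markers did not. VIM, vimentin, lay between 4.87 and 5.56 on the 4 arrays, with a difference of 0.19 and overlapping groups. CDH2, N-cadherin, read 6.87 and 6.75 against 6.08 and 6.83, a difference of 0.35 that also overlapped. Over the 21 genes of the list, 8 (38.1%) lay higher and 3 (14.3%) lower, with a median of 0.17, and none passed the threshold.

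Junction genes lay on both sides. Of 23 genes of adherens junctions, desmosomes and tight junctions, 9 (39.1%) lay lower and 6 (26.1%) higher, with a median of -0.23. The claudins seal tight junctions, and 3 of the 4 in the list lay lower without overlap. CLDN1 read 7.05 and 7.57 in the subline and 8.60 and 8.34 in the parent, a difference of -1.16 (SE 0.273, adjusted p = 0.661, limma with the Fadu spread). CLDN4 differed by -0.89 (SE 0.262) and CLDN7 by -0.66 (SE 0.244). CDH1, E-cadherin, read 8.68 and 8.31 against 9.34 and 8.89, a difference of -0.62 (SE 0.262), and DSC3, a desmosomal cadherin, differed by -0.75. EPCAM lay on the other side, at 0.38.

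SCNN1A was the 1 gene called in its list. Of 17 genes of the epithelial sodium channel and membrane serine proteases, 4 (23.5%) lay lower and 1 (5.88%) higher, with a median of -0.08. TMPRSS4, a membrane serine protease, read 5.49 and 5.10 in the subline and 5.75 and 5.71 in the parent, a difference of -0.44, and PRSS21, testisin, differed by 0.60. Of 18 other ion transporters and channels of epithelia, 8 (44.4%) lay lower and 3 (16.7%) higher. CA2, carbonic anhydrase 2, read 5.80 and 7.11 against 7.48 and 8.50, a difference of -1.53 (SE 0.494), KCNN4, a calcium-activated potassium channel, differed by -0.72, and FXYD5, a sodium pump regulator, by 0.83.

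BST2 had the largest difference among the interferon genes, followed by TRIM22, an antiviral ubiquitin ligase gene, at -1.31 with overlapping arrays. Of 33 interferon stimulated genes 5 (15.2%) lay lower and 0 higher without overlap, fewer than the 20.1% over all genes, with a median of -0.09. The parent duplicates lay apart, with list medians of 0.49 and -0.49 against the parent mean, and the subline arrays lay between them at -0.28 and -0.01. IFIT3, an antiviral RNA-binding protein gene, read 7.62 and 7.68 in the subline and 8.60 and 7.84 in the parent, a difference of -0.58 (SE 0.302). IFI35 and OAS3 differed by -0.43 and -0.37, with ranges of -0.82 to -0.04 and -0.58 to -0.17 when single arrays were left out. ISG15, a ubiquitin-like modifier, read 10.93 and 10.84 against 11.39 and 9.91 and overlapped. Of 21 genes of MHC class I and antigen presentation 6 (28.6%) lay lower and 1 (4.76%) higher, with a median of -0.17. TAPBP, tapasin, differed by -0.66, the immunoproteasome subunits PSMB8 and PSMB10 by -0.61 and -0.48, and HLA-E by -0.46, with the caution that HLA probe sets can share signal.

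Of 30 NF-kB targets and cytokines 9 (30%) lay lower without overlap and 2 (6.67%) higher, with a median of -0.16. The higher genes were CCL5, a chemokine, at 0.82 and IL6, interleukin 6. IL6 read 7.28 and 6.65 in the subline and 5.62 and 5.59 in the parent, a difference of 1.36 (SE 0.284, adjusted p = 0.536, limma with the Fadu spread). CXCL1, a neutrophil chemokine, read 5.60 and 6.49 against 7.04 and 8.18, a difference of -1.57 (SE 0.445), and IL1B, interleukin 1 beta, 6.90 and 7.07 against 7.68 and 9.06, a difference of -1.39. TNFSF10, the death ligand TRAIL, differed by -2.19 (SE 0.552) without overlap, although both of its other probe sets overlapped, at -1.67 and -0.80. TNFAIP2, a gene induced by TNF, differed by -1.70 (SE 0.400), and its second probe set by -0.38 with overlapping arrays.

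HSPB1, the small heat shock protein Hsp27, had one of the cleanest separations. It read 7.71 and 7.98 in the subline and 10.04 and 9.90 in the parent, a difference of -2.12 (SE 0.226, 4.36-fold, adjusted p = 0.0813, limma with the Fadu spread). The remaining heat shock and immediate early genes were mixed, 5 lower and 5 higher of 23. JUND, an AP-1 subunit, differed by -1.93 (SE 0.408), but its other 2 probe sets overlapped, at -0.28 and -0.16. DUSP1, a MAP kinase phosphatase, differed by 1.48 (SE 0.628), a value that ran from 0.39 to 2.57 when single arrays were left out, and its other probe set overlapped at 0.35. KLF6, a zinc finger factor, differed by 0.82, and a second probe set lay higher without overlap at 0.41. Another KLF6 probe set, with means of 3.90 and 3.94 under the dim limit, overlapped at -0.05. Among 24 unfolded protein and ATF4 genes 8 lay lower and 2 higher without overlap, but the median was 0.02, with 13 genes above 0. ASNS, asparagine synthetase, differed by -0.83 and TRIB3, a stress pseudokinase, by -0.72, while the chaperones of the endoplasmic reticulum PDIA6 and HSPA5 differed by 0.51 and 0.44.

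The other higher genes named by the rule had varied roles. GABPB1, a subunit of an ETS transcription factor, had close duplicates, at 7.42 and 7.37 in the subline and 5.82 and 5.97 in the parent, 2.82-fold higher (SE 0.237 on the log2 scale, adjusted p = 0.260, limma with the Fadu spread). CST6, the protease inhibitor cystatin M/E, read 7.01 and 7.01 against 5.46 and 5.89, a difference of 1.33 (SE 0.257). PLCB4, a phospholipase C, read 5.11 and 6.38 against 3.88 and 3.89, a difference of 1.86, with both parent values under the dim limit. MYBL1, a Myb family transcription factor, differed by 1.87 (SE 0.373), ADGRG6, an adhesion G protein-coupled receptor, by 1.58 and BLMH, bleomycin hydrolase, by 1.52. FGD6, a guanine nucleotide exchange factor, differed by 1.34, MRPL46, a mitochondrial ribosomal protein gene, by 1.32 and IRX4, a homeobox gene, by 1.31.

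**Figure D4:**
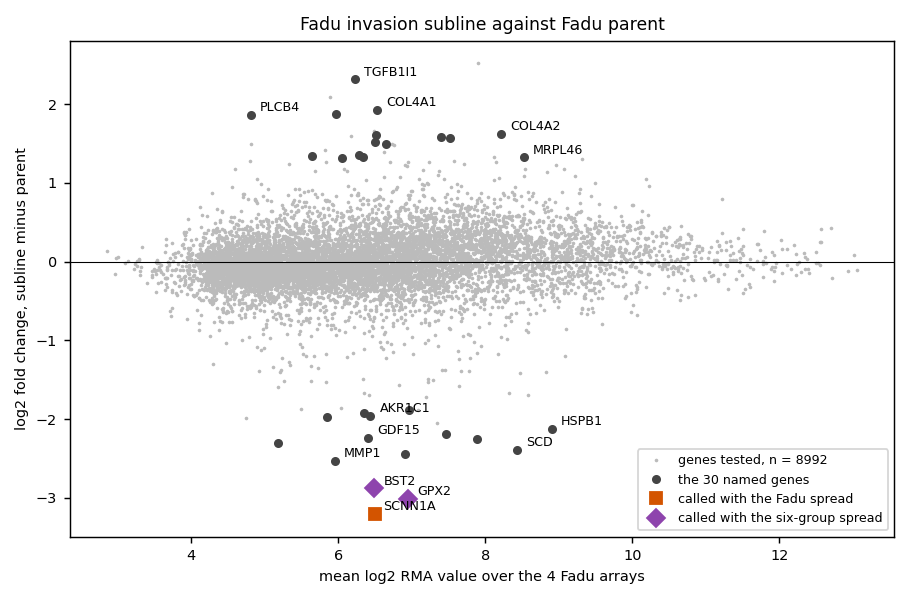
Log2 fold change (subline minus parent) against the mean log2 RMA value over the 4 Fadu arrays for 8992 genes; dark points are the 30 named genes, the square is SCNN1A, called with the Fadu spread, and the diamonds are GPX2 and BST2, called with the six-group spread. The called genes lie at the bottom, at -3.20, -3.01 and -2.88, and the highest of the 30 is TGFB1I1 at 2.32.

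The remaining lists are given by their counts without overlap, where 20.1% of all genes lay lower and 13% higher. The lower shares of integrins (18.2%), EGFR family genes (22.2%), TGF-beta response genes (16.7%) and fibroblast markers (20%) lay near that background. Secretory genes of glandular surfaces had 7 of 22 lower and 2 higher, with ELF3, an epithelial ETS factor, at -1.37, the tetraspanin TSPAN1 at -1.13 and AGR2, a disulfide isomerase of secretory cells, at -1.03. Leaving out single arrays moved ELF3 from -2.21 to -0.53 and AGR2 from -1.74 to -0.32, and AGR2 lay under the dim limit on all Fadu arrays but parent replicate 1. Stem and lineage factors had 6 of 25 lower and 3 higher, with NOTCH1 at -0.86, NOTCH2 at 0.58 and SOX9 at 0.92. WNT genes had 4 of 21 lower and 5 higher, with the secreted regulators DKK3 and DKK1 at 1.26 and 0.86. A second probe set of DKK3 also lay higher without overlap, at 1.38, while 3 more overlapped, at -0.05 to 0.03. Of the other 3 probe sets of NOTCH2, 2 overlapped, at 0.14 and 0.10, and the third lay higher at 0.71. Amino acid and nutrient transporters had 3 of 19 lower and 6 higher, with the glutamate transporter SLC1A3 at -1.33. Counts lower and higher were 4 and 5 of 22 for integrins and adaptors, 4 and 1 of 18 for EGFR family genes, 4 and 3 of 24 for TGF-beta response genes and 4 and 1 of 12 for histones. They were 5 and 7 of 27 for oxidative phosphorylation, 4 and 6 of 25 for ribosomal proteins, 2 and 0 of 10 for fibroblast markers, 2 and 0 of 8 for endothelial markers and 2 and 1 of 10 for leukocyte markers. The medians of these last 9 lists lay between -0.08 and 0.08.

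The OECM1 line, whose subline and parent share no arrays with Fadu, served to ask which of these differences were larger or smaller there. The contrast between the 2 lines called 0 of 8992 genes in the six-group fit, with 212 at an unadjusted p under 0.05 (2.36%). GPX2 came nearest: it differed by -3.01 in Fadu and by 0.66 in OECM1, a gap of -3.67 (SE 0.448, adjusted p = 0.0506, limma). BST2 had a gap of -2.85 (SE 0.451, adjusted p = 0.271), with -0.03 in OECM1, where its means of 4.67 and 4.70 lay just above the dim limit in both groups. The next smallest p-values belonged to MMP13, with a gap of -2.53, PDE2A, a phosphodiesterase gene, with -1.79, PRR5, an mTORC2 component, with -2.09 and GUF1, a mitochondrial GTPase gene, with 1.92. PDE2A lay at 4.24 to 4.64 on the Fadu arrays, and its gap came from 1.76 in OECM1. VIM differed by 2.81 in OECM1 and by 0.19 in Fadu.

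The median of the NRF2 list was -0.35 in Fadu and 0.11 in OECM1, and that of cholesterol and fatty acid synthesis -0.43 and 0.27. For G2 and mitosis the medians were 0.46 and -0.11, and for S phase 0.21 and -0.46, with 29 of 33 S phase genes above 0 in Fadu and 30 of 33 below 0 in OECM1. These 4 medians thus had opposite signs in the 2 lines, and the difference between lines was not tested for a list. CD44, at 1.30 and 1.24, and SOX9, at 0.92 and 0.90, had like values in both.

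**Figure D5:**
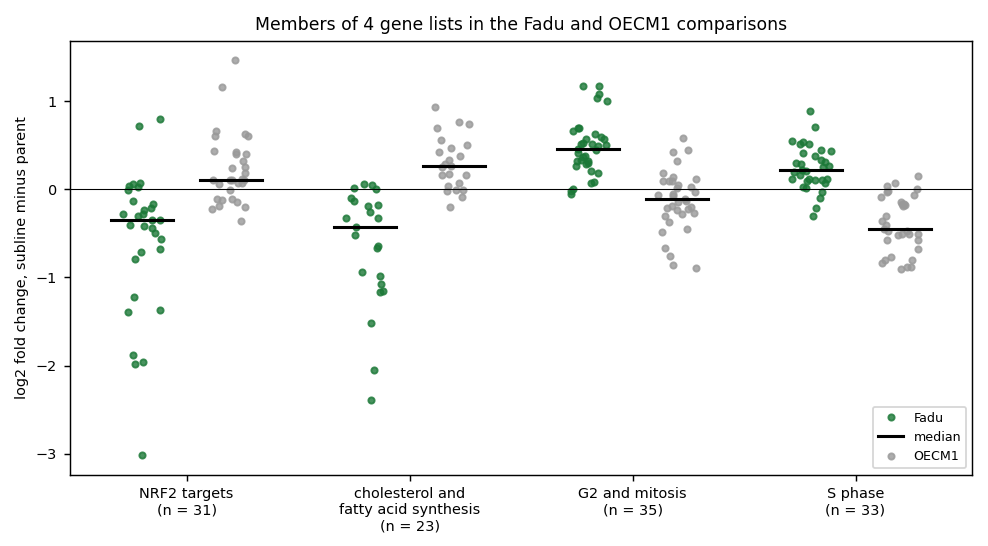
Log2 fold changes (subline minus parent) of the genes of 4 lists in Fadu (green) and OECM1 (grey), each point 1 gene and each bar the median. The Fadu medians are -0.35, -0.43, 0.46 and 0.21 for NRF2 targets, cholesterol and fatty acid synthesis, G2 and mitosis, and S phase, and the OECM1 medians are 0.11, 0.27, -0.11 and -0.46.

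Against the third line the contrast called 54 of 8992 genes (0.601%), 14 below 0 (0.156%) and 40 above 0 (0.445%), but the arrays titled Detroit invasion subline did not resemble their own parent. Their mean correlated at r = 0.961 with the Fadu parent and at r = 0.881 with the Detroit parent. The contrast is therefore between groups as labelled. SCNN1A and GPX2 differed by -3.15 and -2.05 in that line, and BST2 by -0.35.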

How the data were processed

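Total RNA of the Fadu invasion subline and parent was read on 1 array per sample, and all 12 arrays of the study entered the six-group fit. The authors deposited log2 RMA values of 22283 probe sets; RMA and Partek version 7 are named in the submitters' processing notes, without a genome build. No value was missing, and 0 columns of values were unused. Arrays give no read depth, so the number of arrays limits the precision, and no detection calls were used here.

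Genes were named through the platform annotation from the 19065 probe sets with 1 symbol; 1043 had several symbols, 2107 listed none and 68 were controls. Each gene was represented by its probe set of highest mean across the 12 arrays. Genes with at least 2 arrays above the 40th percentile of all values were tested with limma 3.58.1 in R 4.3.3, with an intensity trend, on the 4 Fadu arrays and beside it on all 6 groups, without a replicate block. Benjamini-Hochberg adjustment ran over 8992 genes, with a threshold of 0.05. The fits were tested on simulated data.

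Named genes were those called in either fit, GPX2, BST2 and SCNN1A, the 15 higher and 15 lower genes described in the text, up to 4 members of each of 35 gene lists without overlap, and up to 6 genes per difference between lines. The members and lists were chosen with earlier results of these data known, so they are described by counts and medians without a list test. Squamous and other cell type markers, CCNB1, MCM2, VIM, CDH2 and the neighbours of MRPL46 were named beside the rule. Further list members were also named beside it. Among them were GCLC, GCLM, EPHX1, TXNRD1, NQO1, HMOX1, LSS, SREBF1, SREBF2, AURKA, TRIM22, CCL5, HSPA5 and ISG15. Alternatives changed the trend, prior, filter, probe set, scaling, array weights, replicate block, pooled groups and each array in turn.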

Additional observations from a re-analysis of the deposited data

Results flagged for a closer look

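Among the 129 genes followed, 14 differed in their subline-minus-parent effect between Fadu and the line titled Detroit. The test was the contrast of effects in the six-group limma fit, which called 54 of 8992 genes (0.601%). S100A8, KLK5, CXCL6, S100A9, UCHL1 and PRSS21 were named by this same contrast, some of them also as list members. The count among the genes followed therefore cannot be set against the share over all genes. The differences are between groups as labelled. The mean of the arrays titled Detroit invasion subline resembled the Fadu parent more than the Detroit parent, as given above. Each gap is the Fadu effect minus the effect in that line, on the log2 scale. No gene passed for the gap between Fadu and OECM1.

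The largest gaps included 4 genes of the cornified envelope and squamous differentiation list, KLK5, KLK10, S100A8 and S100A9. KLK5 had a gap of -6.66 (adjusted p = 0.000626), KRT14 of -6.49 (adjusted p = 0.00605), KLK10 of -5.77 (adjusted p = 0.00273) and PRSS21 of -4.88 (adjusted p = 0.00232). S100A8 had a gap of 6.71 (adjusted p = 8.76e-05), S100A9 of 3.98 (adjusted p = 0.000668) and CST6 of 5.68 (adjusted p = 0.0058). Fadu itself supplied -0.02 of the KRT14 gap and -0.87 of the S100A8 gap. S100A8 lay above the dim limit on only 1 Fadu array, a parent array at 4.71. Its mean was 3.44 in both OECM1 groups, and it passed the filter through the Detroit parent, where its mean was highest.

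The gap of COL4A1 was 4.27 (adjusted p = 0.0219), with 1.93 in Fadu and -2.34 in the other line. BST2 had a gap of -2.53 (adjusted p = 0.0341). SLC1A3 had a gap of 4.07 (adjusted p = 0.0152), CXCL6, a chemokine, of 3.82 (adjusted p = 0.000626), UCHL1, a ubiquitin hydrolase gene, of 3.20 (adjusted p = 0.00191), AGR2 of 2.96 (adjusted p = 0.0492) and ARHGAP29 of -3.64 (adjusted p = 0.0408). CXCL6 and UCHL1 differed by 0.04 and -0.13 in Fadu. CXCL6 lay under the dim limit on all 4 Fadu arrays and passed the filter through the Detroit parent, at a mean of 6.78 against 3.01 or less in the other groups.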

How the results depend on the processing

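Beside the values given with SCNN1A, GPX2 and BST2, these counts moved by over 1.5 times, and the cause was not tested. With the Fadu spread 1 gene was called, and 0 with the probe set of highest Fadu mean, where 462 had an unadjusted p under 0.05 in limma. Leaving out single Fadu arrays gave 2 to 21. The six-group count of 2 became 5 with array weights, where ALDH3A1, GABPB1 and MMP13 joined, and 0 to 3 without single Fadu arrays. The gap to OECM1 went from 0 to 1 with no trend, and lay at 0 to 1 without single arrays (1 without Fadu parent replicate 1). The gap to the line titled Detroit, 54 genes, ran from 25 to 335 without single arrays, with 335 when invasion replicate 1 of that line was left out.

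Same-numbered arrays share only a number: their deviations in Fadu correlated at -0.38. With the replicate block the count was 1 with the Fadu spread, 0 with the six-group spread (109 at an unadjusted p under 0.05), 0 for the gap to OECM1 and 30 for the gap to the line titled Detroit. A block with crossed numbers, added after seeing the data, called 11 genes with the Fadu spread and 2 with the six-group spread. The ACTB 3 prime minus 5 prime difference as a covariate, also added after seeing the data, called 79 genes (47 lower, 32 higher) with the Fadu spread and 2 with the six-group spread. Both leave 1 residual degree of freedom in the 4-array fit.

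Over 8 settings the list medians ran from -0.47 to -0.30 for NRF2 targets, from -0.73 to -0.31 for cholesterol and fatty acid synthesis, from 0.34 to 0.55 for G2 and mitosis, from 0.12 to 0.37 for S phase and from -0.61 to 0.36 for interferon genes. The sign differed in at least 1 setting for 17 of 35 lists. The median of the genes tested moved from -0.02 to -0.001 with centring.

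Signs turned for a few genes with small differences. With quantile normalization PDE2A became 0.040. Leaving out 1 Fadu array at a time gave ranges, the same in both fits, from -0.23 to 0.17 for PDE2A (0.09 without parent replicate 2), from -0.15 to 0.54 for VIM (lowest without subline replicate 1) and from -0.16 to 0.25 for CXCL6 (lowest without subline replicate 2). The range was -0.026 to 0.73 for CDH2 (lowest without parent replicate 1), -0.51 to 0.98 for ISG15 (lowest without parent replicate 2), -0.66 to 0.62 for KRT14 (0.62 without subline replicate 2, 0.19 without parent replicate 1) and -0.49 to 0.11 for DSG3 (0.11 without parent replicate 1, 0.05 without subline replicate 1). With 2 arrays per group, weak signals near the dim limit were measured least well.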

Other observations

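Neighbouring genes on chromosome 15 lay higher together, a pattern that was seen in the data and is given by its values, without a test. The genes tested were put in the order of the RefSeq gene table, which placed 8988 of them, and the median log2 difference was taken over each run of 15 neighbours. Of 8656 runs, the highest median was 0.80, from AKAP13 to RHCG on chromosome 15. In that run 6 genes lay higher and 3 lower without overlap. The highest on any other chromosome was 0.52, from GTF2H1 to KIF18A on chromosome 11, with 8 higher and 0 lower. The lowest was -0.49, from WDR70 to PARP8 on chromosome 5, with 0 higher and 11 lower. Runs overlap, so these are not independent. A stretch of chromosome 15 from MRPL46 to BLM was set by name, with its largest differences, 1.32 and 1.26, at its ends. It held 22 genes tested, both ends included. Of these, 18 had a difference above 0, and 10 lay higher and 2 lower without overlap, where 15.7% and 18% of the genes tested did so. Their median was 0.76 in Fadu, 0.03 in OECM1 and 0.62 in the line titled Detroit.

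BLM, the helicase of Bloom syndrome, read 8.55 and 9.02 in the subline and 7.63 and 7.41 in the parent, a difference of 1.26. MRPL46 read 9.15 and 9.23 against 8.14 and 7.58, and its neighbour MRPS11, which also encodes a mitochondrial ribosomal protein, 9.51 and 10.03 against 9.03 and 8.34, a difference of 1.08. ABHD2, a hydrolase gene, differed by 1.15, FANCI, of the Fanconi anemia pathway, by 1.04, NGRN, neugrin, by 1.04, AEN, an exonuclease gene, by 0.98 and POLG, the mitochondrial DNA polymerase, by 0.80. The smallest adjusted p of the 22 was 0.536 (limma with the Fadu spread). RHCG, an ammonium transporter of squamous epithelium, lay lower in the same stretch, at -0.83. DNA copy number was not measured on these arrays, and its part in the pattern was not tested.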
